A study of Mus musculus with 30 samples.

Results

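The membrane skeleton of neurons was examined through the alternative splicing of 9 genes: the ankyrins Ank1, Ank2 and Ank3, the spectrin chain Sptan1, the adducin Add1, and the Epb4.1 family genes Epb4.1, Epb4.1l1, Epb4.1l3 and Epb4.1l4a. They were chosen by gene symbol alone, as every event of those ankyrin, spectrin, adducin and Epb4.1 family genes in the 4 deposited splicing tables. They hold 83 of the 6491 entries in those tables, which are 51 of 4923 distinct events.

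The study removed Nova2, a neuronal RNA-binding protein that controls splicing, from classes of mouse neuron with Cre recombinase. Groups were Emx1-Cre Nova2-cKO and Emx1-Cre control neurons and Gad2-Cre Nova2-cKO and Gad2-Cre control neurons, all sorted from cortex at embryonic day 18.5, and Pcp2-Cre Nova2-cKO and Pcp2-Cre control Purkinje cell layer, dissected from cerebellum at postnatal day 28. Each group had 3 libraries of total RNA depleted of ribosomal RNA, from C57BL/6J mice. Control libraries carry the genotype label wild-type with the same Cre, so Cre was shared by cKO and control. Emx1-Cre is known to act in the lineage of excitatory cortical neurons, Gad2-Cre in inhibitory neurons and Pcp2-Cre in Purkinje cells, and the Purkinje layer also holds other cells. The splicing tables hold no expression values, so neither the purity of these samples nor the loss of Nova2 could be checked from them. In sorted or dissected tissue, a changed level within cells and a changed mixture of cells cannot be told apart.

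Ankyrins are adaptors that tie membrane proteins to spectrin, a long flexible protein whose tetramers are joined at short actin filaments. Ank3 (ankyrin-G) organises the axon initial segment and nodes of Ranvier, Ank2 (ankyrin-B) lies along axons, and Ank1 (ankyrin-R) was first described in red blood cells. Sptan1 encodes the alpha spectrin of non-erythroid cells, adducins cap actin filaments and recruit spectrin to them, and the Epb4.1 protein strengthens the spectrin-actin junction. NOVA proteins bind RNA at the motif YCAY, where Y is C or U, which in DNA letters is TCAT or TCAC where the first base is T, and CCAT or CCAC where it is C.

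The alternative pieces on which the results turn are shown first, since most are short and coding. All are read 5′ to 3′ on the transcribed strand from GENCODE M21 transcripts (build mm10), with any of the 4 NOVA motifs in capitals. The first pair are the 15 bases that an upstream 3′ splice site adds to the same exon of 2 ankyrin genes, at chr10:69932394-69932408 (plus strand) in Ank3 and chr3:126976933-126976947 (minus strand) in Ank2. They matched at 14 of 15 positions (93.3%), and each adds 5 codons.

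Ank3 extension: cctccgctccttcag
Ank2 extension: cctccggtccttcag

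The microexon that lies before each of these splice sites, at chr10:69929447-69929458 in Ank3 and chr3:126979256-126979267 in Ank2, is 12 nt long in both genes. There the 2 genes matched at 6 of 12 positions (50%). The Ank2 microexon holds 1 motif and that of Ank3 none, and 6.67% of 15 listed exons of like length hold at least 1. The Ank2 microexon was not listed as an event of its own, so no change of it is known. It is shown only as the exon before the Ank2 site.

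Ank3 microexon: tcccaagataag
Ank2 microexon: taCCATccccag

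The Ank2 exon that changed most clearly in both cortical classes is a coding exon of 183 nt (61 codons) at chr3:126928665-126928847, minus strand. It holds 3 motifs, and 96.7% of 60 listed exons of like length (within 10%) hold at least 1. The Ank3 exon of 27 nt (9 codons) at chr10:69980824-69980850 holds none, against 30% of 20 exons of like length.

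Ank2 183 nt exon: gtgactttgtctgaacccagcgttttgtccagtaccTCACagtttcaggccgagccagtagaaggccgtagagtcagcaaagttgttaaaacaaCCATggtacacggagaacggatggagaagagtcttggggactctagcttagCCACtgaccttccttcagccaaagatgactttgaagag
Ank3 27 nt exon: gagacagagtcagatcaagatgatgag

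Epb4.1 has 3 neighbouring coding exons of 57, 42 and 63 nt (19, 14 and 21 codons), in that order along the transcript, on the minus strand at chr4:131964131-131964187, chr4:131963929-131963970 and chr4:131962924-131962986. The 63 nt exon is the one known, from work on the red blood cell protein, to encode part of the site that binds spectrin and actin. The 57 nt exon holds 2 motifs and the others none, and 49.3%, 42.1% and 53.4% of exons of like length hold 1 for lengths of 57, 42 and 63 nt.

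Epb4.1 57 nt exon: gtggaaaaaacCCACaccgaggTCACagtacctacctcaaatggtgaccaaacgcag
Epb4.1 42 nt exon: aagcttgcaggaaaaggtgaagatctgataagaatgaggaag
Epb4.1 63 nt exon: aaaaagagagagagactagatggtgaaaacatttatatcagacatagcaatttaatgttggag

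The remaining pieces are a coding exon of 60 nt (20 codons) of Sptan1 at chr2:30001100-30001159, one of 123 nt (41 codons) of Epb4.1l3 at chr17:69283885-69284007, one of 24 nt (8 codons) of Ank1 at chr8:23110347-23110370, and a 37 nt exon of Add1 at chr5:34629136-34629172, all on the plus strand. The Epb4.1l3 exon holds 2 motifs, the Ank1 exon 1 and the others none. Of exons of like length, 52.6%, 83.3%, 21.1% and 53.1% hold a motif for the Sptan1, Epb4.1l3, Ank1 and Add1 exons. The Add1 exon is only partly coding in GENCODE, and its length is not a multiple of 3.

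Sptan1 60 nt exon: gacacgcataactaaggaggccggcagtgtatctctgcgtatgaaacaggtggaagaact
Epb4.1l3 123 nt exon: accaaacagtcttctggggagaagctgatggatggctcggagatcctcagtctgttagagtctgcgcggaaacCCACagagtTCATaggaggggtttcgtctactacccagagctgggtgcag
Ank1 24 nt exon: gaactgcTCACatatctataatgg
Add1 37 nt exon: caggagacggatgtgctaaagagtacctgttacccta

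A motif count describes these letters and does not show binding. Introns beside the exons were not read. Over all members, 18 of 25 distinct cassette exons (exons either included or skipped) had a length that is a multiple of 3, which is 72%. In other genes 915 of 1705 listed cassette exons did, or 53.7%. Several member exons are longer or shorter forms of 1 exon and are not separate pieces of evidence.

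Each deposited table gives, for an event, 1 inclusion level in each group (a fraction between 0 and 1 that the authors pooled over the libraries), with their false discovery rate (FDR) for the difference. A level is read here as the share of the event's RNA that holds the alternative piece. There is no value per library, so levels carry no SD, and the FDR is the authors'. Whether the 3 libraries per group stem from different animals is not stated in the labels, and the FDR may then measure technical spread in part. Coverage is the authors' value for an event and its definition was not found in the labels or headers. Events were listed only with FDR up to 0.05, an absolute difference of at least 0.1 and coverage of at least 20. An event that is not listed may have changed too little or been covered too thinly, and no level is known for it.

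Members were listed 33 times among 2682 events in the Emx1-Cre cKO table (1.23%, 6 genes) and 25 times among 1970 in the Gad2-Cre cKO table (1.27%, 7 genes). They were listed 7 times among 1236 in the table of Emx1-Cre against Gad2-Cre controls (0.566%, 2 genes) and 18 times among 603 in the Purkinje table (2.99%, 5 genes). Among single and tandem cassette exons, 17 of 24 Emx1-Cre events fell in cKO neurons and 7 rose, where 52.5% of all listed events of these types fell. In Gad2-Cre neurons 14 of 21 fell and 7 rose, against 65.7% of all that fell. Many of these entries are overlapping forms or runs of the same exons and are not separate pieces of evidence. With only the largest event of each gene, of any type, 6 Emx1-Cre and 7 Gad2-Cre events were left. Of these, 2 and 4 were cassette or tandem events that fell, so the direction counts depend on the overlapping entries. In the table of controls all 7 member events were lower in Emx1-Cre than in Gad2-Cre neurons, against 64.2% of all, and these 7 lie in 1 region each of Add1 and Ank3 (with a tandem partner in Add1). For the Purkinje layer, 9 of 17 were lower in group 1 than in group 2, against 65.8% of all. The median absolute difference of member events was 0.303 in Emx1-Cre, 0.267 in Gad2-Cre, 0.369 in the controls and 0.156 in the Purkinje table. Over all listed events it was 0.209, 0.202, 0.201 and 0.170 in the same 4 tables. No retained intron was listed in a member gene, against 297, 242, 112 and 82 listed over all genes in those tables.

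**Figure D1:**
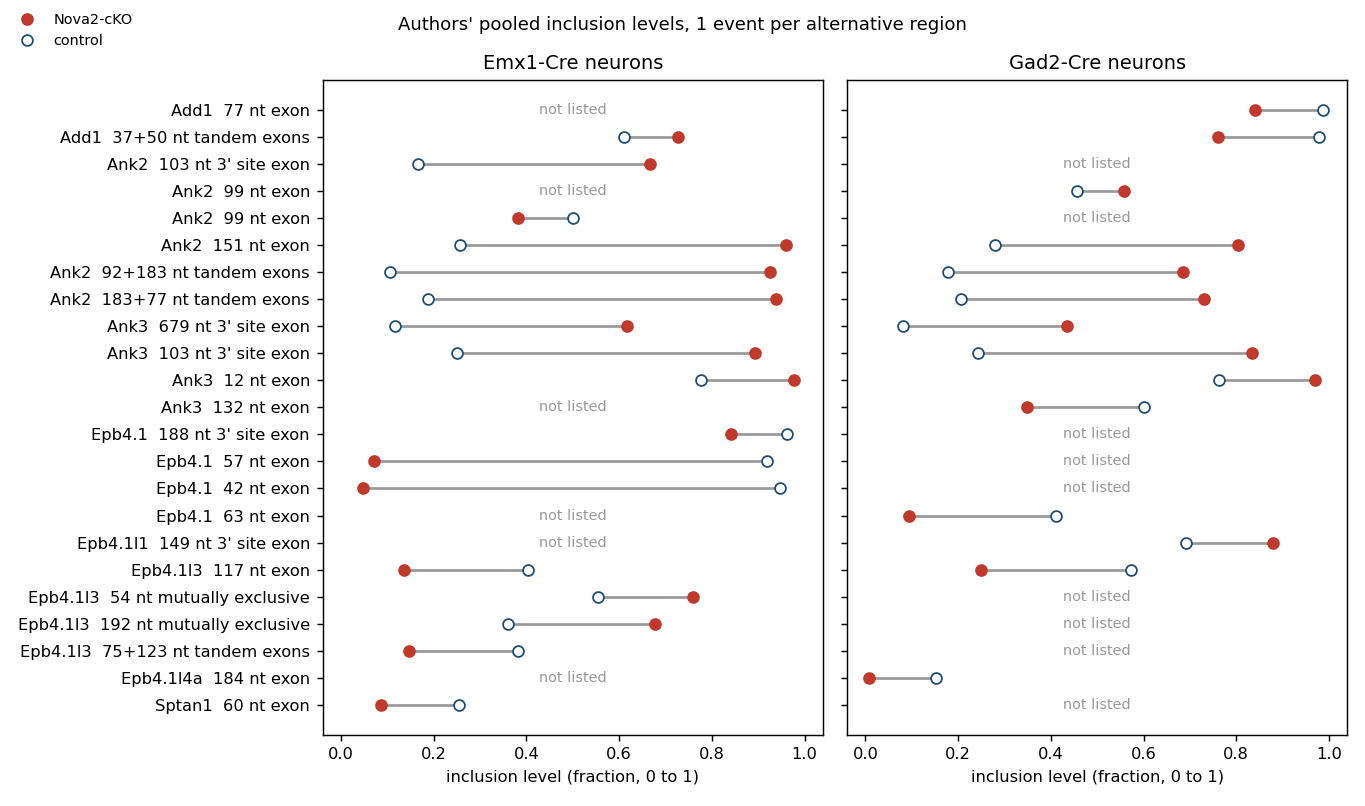
Authors' pooled inclusion levels (fraction, horizontal axis) of member events in Emx1-Cre (left) and Gad2-Cre (right) neurons, with 1 event per alternative region of each gene. Filled circles are Nova2-cKO and open circles control, joined by a line per event. Ank2 and Ank3 show the long lines to the right, with the Ank2 tandem exons at 0.926 in Emx1-Cre cKO and 0.105 in control, while each Epb4.1 line runs to the left.

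Among the ankyrins, an Ank2 event had the largest listed rise in Emx1-Cre neurons and an Ank3 event in Gad2-Cre neurons. In the authors' deposited Emx1-Cre table, the 183 nt exon was included at 0.977 in cKO neurons and 0.342 in control neurons (FDR 4.39e-88, coverage 138). Gad2-Cre neurons held it at 0.880 in cKO and 0.417 in control in the authors' deposited table (FDR 4.49e-17, coverage 94.9). Controls of both classes therefore included the exon in a minority of the RNA, and cKO neurons of both classes in most of it. In the Purkinje layer, per the authors' deposited table, it was at 0.768 in group 1 and 0.886 in group 2 (FDR 1.71e-16, coverage 517), so both groups of this postnatal tissue lay above both cortical controls.

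The exon was also listed in tandem with its neighbours, which were not measured without it. As a pair with the 92 nt exon at chr3:126926803-126926894, the 183 nt exon rose to 0.926 in Emx1-Cre cKO neurons, against 0.105 in control neurons, in the authors' deposited table (FDR 1.7e-84). In Gad2-Cre neurons the pair rose to 0.686 in cKO, against 0.179 in control, in the authors' deposited table (FDR 1.13e-15). A second pair, of the 183 nt exon with a 77 nt exon that GENCODE M21 does not hold, was at 0.939 in cKO and 0.187 in control for Emx1-Cre and at 0.731 in cKO and 0.206 in control for Gad2-Cre neurons in the authors' deposited tables. Forms of 219 and 151 nt of the same exon rose as well, in both classes. These 5 events share the 183 nt exon or a form of it, so they are not separate pieces of evidence.

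Further Ank2 pieces changed by less or in 1 class. The 15-base extension shown above, if the level is that of the longer exon, was at 0.667 in Emx1-Cre cKO and 0.167 in control neurons in the authors' deposited table (FDR 8.91e-06), at a coverage of only 24, and was not listed for Gad2-Cre. A coding exon of 99 nt (33 codons) at chr3:127012673-127012771, which encodes an ankyrin repeat, the unit with which ankyrins hold membrane proteins, fell to 0.382 in Emx1-Cre cKO neurons, against 0.501 in control neurons, in the authors' deposited table (FDR 0.0143, coverage 364). The isoform with the same exon in a mutually exclusive pair fell to 0.168 in Gad2-Cre cKO neurons, against 0.278 in control neurons, in the authors' deposited table (FDR 0.0410), where an overlapping clone-based gene is also named. A different 99 nt exon, at chr3:127248134-127248232, rose to 0.558 in Gad2-Cre cKO neurons, against 0.456 in control neurons, in the authors' deposited table (FDR 0.0227), and its entry names 6 overlapping genes with which reads could be shared. A 24 nt piece outside GENCODE exons was at 0.250 in Purkinje group 1 and 0.400 in group 2 in the authors' deposited table (FDR 0.010), also with an overlapping gene.

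For an alternative 3′ splice site, the level is read here as the share of the isoform named first, which the deposited intervals draw with the longer exon. The sources used here do not state this, and under the opposite reading each such direction, in Ank2, Ank3, Epb4.1 and Epb4.1l1, would turn round. So read, both alternative 3′ splice site events of Ank3 moved to the longer exon in cKO neurons of both cortical classes. Ank3 is the gene of the axon initial segment ankyrin. For the smaller site this holds only within the RNA that its event counts, as described below. The larger one adds 588 coding nt (196 codons) to a 91 nt exon, giving 679 nt at chr10:70001923-70002601. In the authors' deposited Emx1-Cre table the long form was at 0.617 in cKO and 0.116 in control neurons (FDR 3.03e-64, coverage 190). Gad2-Cre neurons used it at 0.435 in cKO and 0.0809 in control in the authors' deposited table (FDR 4.18e-38, coverage 173). In the Purkinje layer it was at 0.114 in group 1 and 0.235 in group 2 in the authors' deposited table (FDR 0.00812, coverage 77.9), where group 1 lay within the range of the cortical controls and group 2 above it, both below the cortical cKO levels.

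The Ank3 extension of 15 bases, almost the same as that of Ank2, makes an exon of 103 nt in place of 88 nt. In the RNA that its event counts, it was used at 0.893 in Emx1-Cre cKO and 0.250 in control neurons in the authors' deposited table (FDR 1.4e-18, coverage 67.5). In Gad2-Cre neurons it was used at 0.833 in cKO and 0.242 in control in the authors' deposited table (FDR 1.43e-07, coverage 49.2). Each within the RNA its own event counts, the nearly identical extensions of 2 ankyrin genes both rose in Emx1-Cre cKO neurons, that of Ank2 at a coverage of 24. That of Ank3 also rose in Gad2-Cre cKO neurons. The junctions counted for the Ank3 event match those that skip the microexon before this site, in the events that follow. The Ank3 event thus appears to leave out RNA that holds the microexon. In the Ank2 event the exon before the site is the 12 nt microexon itself, so that event appears to count RNA that holds it. The rises of the 2 extensions are therefore not measured in like RNA.

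The Ank3 microexon of 12 nt just before this site was read against each of the 2 sites. Spliced to the 88 nt form, it rose to 0.977 in Emx1-Cre cKO neurons, against 0.777 in control neurons, in the authors' deposited table (FDR 6.05e-17). In Gad2-Cre neurons it rose to 0.970 in cKO, against 0.764 in control, in the authors' deposited table (FDR 5.21e-11). Spliced to the 103 nt form, it fell to 0.729 in Emx1-Cre cKO neurons, against 0.846 in control neurons, in the authors' deposited table (FDR 0.0410, coverage 107). In Emx1-Cre neurons the microexon thus moved in opposite directions with the 2 sites, and its event with the 103 nt form was not listed for Gad2-Cre. The 88 nt form therefore held the microexon more often in cKO neurons of both classes. Which site gained over all Ank3 RNA, with and without the microexon, was not tested.

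The 27 nt exon of Ank3 was listed for Gad2-Cre neurons and for the difference between the controls. It fell to 0.494 in Gad2-Cre cKO neurons, against 0.707 in control neurons, in the authors' deposited table (FDR 0.0105, coverage 35). In the authors' deposited table of controls it was at 0.289 in Emx1-Cre and 0.707 in Gad2-Cre neurons (FDR 1.81e-05). The cKO level of Gad2-Cre neurons lay between the controls of the 2 classes, which share the Gad2-Cre control value by construction. Longer forms of 132 and 108 nt, not in GENCODE, gave 0.349 and 0.351 in Gad2-Cre cKO, 0.177 and 0.177 in Emx1-Cre control, and 0.60 and 0.586 in Gad2-Cre control neurons in the authors' deposited tables, at coverage of 23 to 24.

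Ank1 was listed in 1 table only. Its 24 nt coding exon was at 0.995 in Purkinje group 1 and 0.489 in group 2 in the authors' deposited table (FDR 3.76e-25, coverage 65.7). No other member event of the Purkinje table differed by as much. The labels and headers used here do not name which Purkinje group is the cKO, so no direction of the Nova2 effect is given for that table.

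Epb4.1 fell in cKO neurons of both cortical classes at each listed cassette event. In the authors' deposited Emx1-Cre table, the run of all 3 exons (57, 42 and 63 nt) was at 0.0490 in cKO and 0.471 in control neurons (FDR 2.56e-14, coverage 123). The same run was at 0.151 in Gad2-Cre cKO and 0.434 in control neurons in the authors' deposited table (FDR 0.000230, coverage 61). These are 2 of its 13 single and tandem cassette entries in the 2 tables.

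The exons were then read by their neighbours. In RNA joined to the 63 nt exon, the 57 nt exon fell to 0.0702 in Emx1-Cre cKO neurons, against 0.920 in control neurons, in the authors' deposited table (FDR 0.000117). The 42 nt exon fell there to 0.0474 in cKO, against 0.947 in control, in the authors' deposited table (FDR 1.43e-09), and the pair of them to 0.0617 in cKO, against 0.966 in control (FDR 1.21e-07). These 3 events rest on a coverage of 22.3, close to the minimum of 20. In RNA that skips the 63 nt exon, the 57 nt exon was at 0.00451 in Emx1-Cre cKO and 0.299 in control neurons in the authors' deposited table (FDR 6.88e-08, coverage 24.2). Both events of the 57 nt exon alone leave out RNA that holds the 42 nt exon. Within the RNA they count, control neurons held the 57 nt exon in most that had the 63 nt exon and in less that lacked it. In cKO neurons it was held in little of either.

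The 63 nt exon alone was listed for Gad2-Cre neurons, where it was at 0.0949 in cKO and 0.412 in control in the authors' deposited table (FDR 0.00661, coverage 34.0). With the 42 nt exon it was at 0.0597 in cKO and 0.362 in control for Emx1-Cre and at 0.106 in cKO and 0.438 in control for Gad2-Cre neurons in the authors' deposited tables (FDR 1.99e-12 and 6.93e-05). With the 57 nt exon it was at 0.0621 in cKO and 0.289 in control for Emx1-Cre and at 0.118 in cKO and 0.308 in control for Gad2-Cre neurons in the authors' deposited tables (FDR 2.63e-08 and 0.0101). Every listed combination that holds the known spectrin and actin binding exon was therefore lower in cKO neurons of both classes. In Emx1-Cre neurons each of these also holds the 57 or 42 nt exon, which fell where joined to the 63 nt exon. The 63 nt exon alone was not listed there, so its own change in Emx1-Cre neurons is not known. An upstream 3′ splice site, with a 188 nt exon in its longest form, fell to 0.842 in Emx1-Cre cKO neurons, against 0.963 in control neurons, in the authors' deposited table (FDR 0.0196). No Epb4.1 event was listed in the table of controls or in the Purkinje table.

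**Figure D2:**
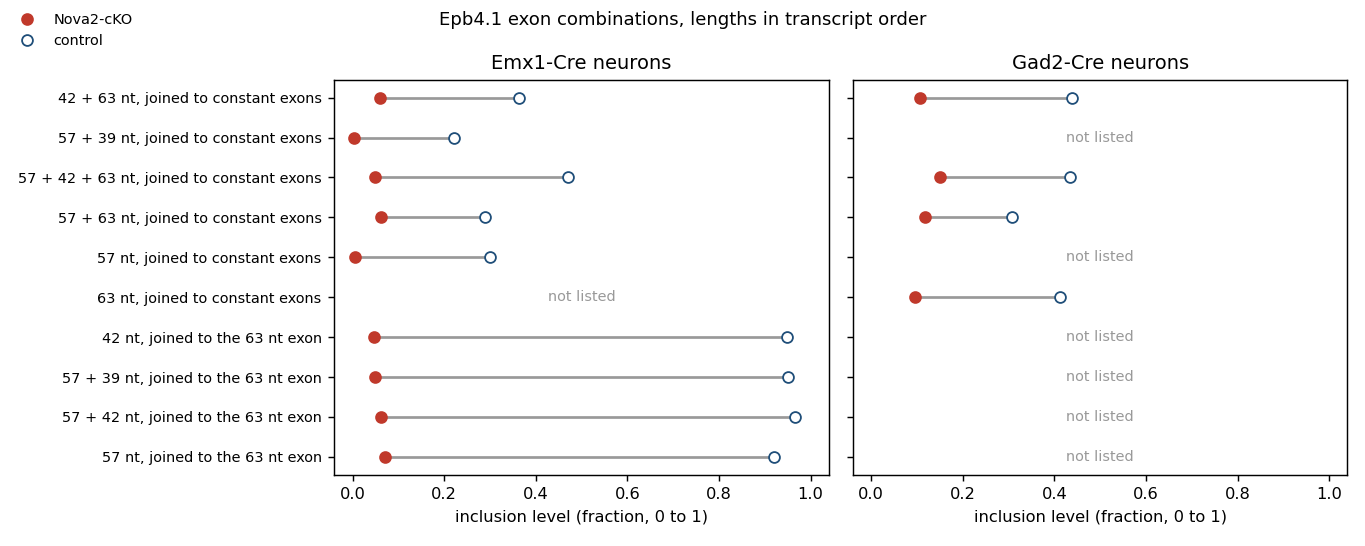
Authors' pooled inclusion levels (fraction, horizontal axis) of the Epb4.1 exons of 57, 42, 39 and 63 nt, singly and in runs, in Emx1-Cre (left) and Gad2-Cre (right) neurons. Filled circles are Nova2-cKO and open circles control. Each listed combination is lower in cKO, and in Emx1-Cre neurons RNA joined to the 63 nt exon runs from 0.920 to 0.966 in control.

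Epb4.1l3 encodes a protein that links adhesion proteins beside nodes of Ranvier to spectrin and actin. Its 123 nt exon fell to 0.283 in Emx1-Cre cKO neurons, against 0.597 in control neurons, in the authors' deposited table (FDR 6.49e-07, coverage 103). In Gad2-Cre neurons it fell to 0.480 in cKO, against 0.747 in control, in the authors' deposited table (FDR 0.0361, coverage 54.4). The longer 178 nt form fell in both classes, to 0.139 and 0.255 in cKO, against 0.416 and 0.574 in control, for Emx1-Cre and Gad2-Cre neurons in that order in the authors' deposited tables. In the Purkinje layer this form was at 0.961 in group 1 and 0.836 in group 2 in the authors' deposited table (FDR 0.00346, coverage 32.5), above all 4 cortical levels.

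The 75 nt exon before it, at chr17:69281033-69281107, was listed with it as a pair. The pair of 75 and 123 nt exons was at 0.147 in Emx1-Cre cKO and 0.381 in control neurons in the authors' deposited table (FDR 1.29e-06). In the Purkinje layer the pair was at 0.948 in group 1 and 0.813 in group 2 in the authors' deposited table (FDR 0.00511). With the 178 or the 117 nt form of the second exon, the pair was at 0.514 in group 1 and 0.121 in group 2 in the authors' deposited table (FDR 0.00514 and 0.00510, coverage 31.8). The level in group 2 therefore differed widely with the form counted, while group 1 was higher for each of the 3. In 4 mutually exclusive events the isoform named first, with an exon of 54 or 192 nt, rose in Emx1-Cre cKO neurons, to between 0.678 and 0.805, against 0.361 to 0.588 in control neurons. A partly coding exon of 117 nt at chr17:69287612-69287728 was listed in the Purkinje table only. Its 105 nt form was at 0.698 in group 1 and 0.875 in group 2 in the authors' deposited table (FDR 0.000457, coverage 93.1). The full 117 nt form was at 0.824 in group 1 and 0.927 in group 2 (FDR 0.000467), and in tandem with the 180 nt exon that follows it was at 0.613 in group 1 and 0.793 in group 2 in the authors' deposited table (FDR 0.000393). Within 1 gene, the Purkinje groups thus differed in opposite directions at the 123 nt and the 117 nt exons.

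The other genes of the Epb4.1 family had 1 event each, both in Gad2-Cre neurons. For Epb4.1l1, known as the neuronal form of the family, a 3′ splice site giving a 149 nt exon in place of 146 or 125 nt, by the reading above, rose to 0.880 in cKO neurons, against 0.692 in control neurons, in the authors' deposited table (FDR 0.00138, coverage 85.0). For Epb4.1l4a, a 184 nt exon that GENCODE M21 does not hold fell to 0.00680 in cKO neurons, against 0.152 in control neurons, in the authors' deposited table (FDR 0.0308), at the minimum coverage of 20.

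Sptan1, the alpha spectrin, was listed in Emx1-Cre neurons and in the Purkinje layer. Its 60 nt exon fell to 0.0865 in Emx1-Cre cKO neurons, against 0.255 in control neurons, in the authors' deposited table (FDR 4.8e-12), with the highest coverage of any Emx1-Cre member event (796). In the Purkinje layer it was at 0.845 in group 1 and 0.695 in group 2 in the authors' deposited table (FDR 4.59e-23, coverage 834). The postnatal tissue thus included in most of its RNA an exon that embryonic Emx1-Cre neurons mostly skipped. A 227 nt form of the exon gave the same directions, at 0.0492 in cKO and 0.152 in control for Emx1-Cre neurons, and at 0.753 in group 1 and 0.553 in group 2 for the Purkinje layer in the authors' deposited tables.

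**Figure D3:**
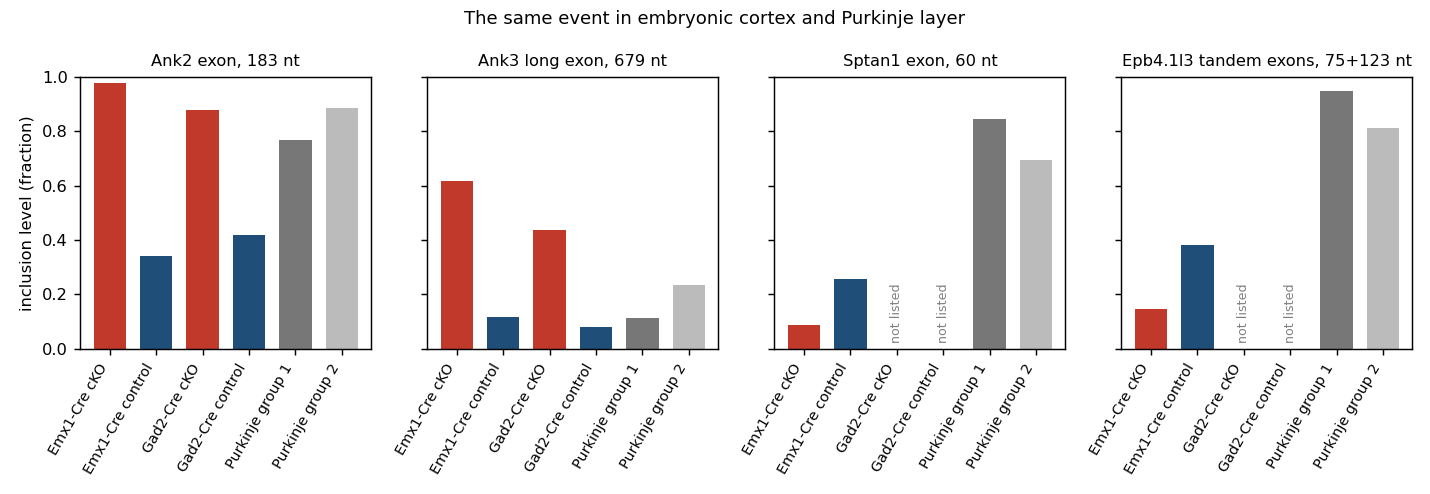
Authors' pooled inclusion levels (fraction, vertical axis from 0) of 4 member events in cortical Emx1-Cre and Gad2-Cre neurons at embryonic day 18.5 and in the Purkinje layer at postnatal day 28, whose groups 1 and 2 are not named. The Sptan1 exon is at 0.0865 and 0.255 in Emx1-Cre cKO and control neurons and at 0.845 and 0.695 in the Purkinje groups. The long Ank3 exon is highest in the cKO neurons.

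Region and age differ together between cortex and Purkinje layer, so they cannot be told apart in these levels. Add1, the adducin, was the one member that moved in opposite directions in the cortical classes. The pair of its 37 and 50 nt exons rose to 0.728 in Emx1-Cre cKO neurons, against 0.610 in control neurons, in the authors' deposited table (FDR 0.0372, coverage 98.1). In Gad2-Cre neurons the pair fell to 0.760 in cKO, against 0.979 in control, in the authors' deposited table (FDR 0.0305, coverage 37.4). The controls themselves were at 0.610 for Emx1-Cre and 0.979 for Gad2-Cre in the authors' deposited table of controls (FDR 9.85e-05). The 2 cKO levels, 0.728 and 0.760, lay closer to each other than the 2 control levels, and the 3 tables share these control samples. The 34 nt and 77 nt forms fell as well in Gad2-Cre cKO neurons, to 0.854 and 0.841, against 0.988 and 0.987 in control, in the authors' deposited table.

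Across the cortical classes, 15 member events in 5 genes were listed in both cKO tables. They are 45.5% of the Emx1-Cre member events, where 30.7% of all Emx1-Cre events were shared, and 60% of the Gad2-Cre member events, where 41.8% of all were shared. Many of the 15 are overlapping forms or runs of the same exons, and with 1 event per gene 2 were shared. Of the 15, 14 had the same direction in both classes, as did 802 of all 823 shared events. The 2 tables use separate libraries, but all listed events had already passed the same thresholds. Counted by table, 28 distinct member events were listed once, 14 in 2 tables and 9 in 3 tables, and no event was listed in all 4.

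The size of the change was compared between the classes with a two-sided normal test of the difference of the 2 differences, its spread derived from the authors' p-values, adjusted by Benjamini-Hochberg over all 823 shared events. It called 5 of 15 member events, against 12.9% of all shared events (106 of 823). The called Ank2 events share 1 exon and are not separate calls, so these shares are not a like comparison. With 1 event per gene, 2 shared member events were left, and 1 of them, the Add1 pair, was called. For the Ank2 pair of 92 and 183 nt exons the Emx1-Cre rise was larger by 0.314 than the Gad2-Cre rise (spread 0.0724, adjusted p = 0.000355). For the Ank2 pair of 183 and 77 nt exons it was larger by 0.227 (spread 0.0701, adjusted p = 0.0124), and for the 183 nt exon alone by 0.171 (spread 0.0607, adjusted p = 0.0391). For the long Ank3 exon it was larger by 0.147 (spread 0.0392, adjusted p = 0.00243). For Add1 the changes, of opposite sign, differed by 0.336 (spread 0.0895, adjusted p = 0.00240), an outcome that its listing in opposite directions largely fixes. With a binomial spread from coverage in place of the p-values, 3 members were called, and the long Ank3 exon (adjusted p = 0.140) and the 183 nt Ank2 exon (adjusted p = 0.170) were no longer among them.

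The other 10 shared events missed the threshold, which does not show that the classes acted alike. The Emx1-Cre change minus the Gad2-Cre change was 0.0520 for the 15-base Ank3 extension (95% interval -0.181 to 0.285, adjusted p = 0.867) and -0.00687 for the Ank3 microexon (interval -0.0790 to 0.0652, adjusted p = 0.936). The interval for the microexon is narrow, and that for the extension includes the 0.171 found for the 183 nt Ank2 exon. For the run of 3 Epb4.1 exons it was -0.138 (interval -0.302 to 0.0253, adjusted p = 0.333), and for the 123 nt Epb4.1l3 exon -0.0469 (interval -0.268 to 0.174, adjusted p = 0.876).

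**Figure D4:**
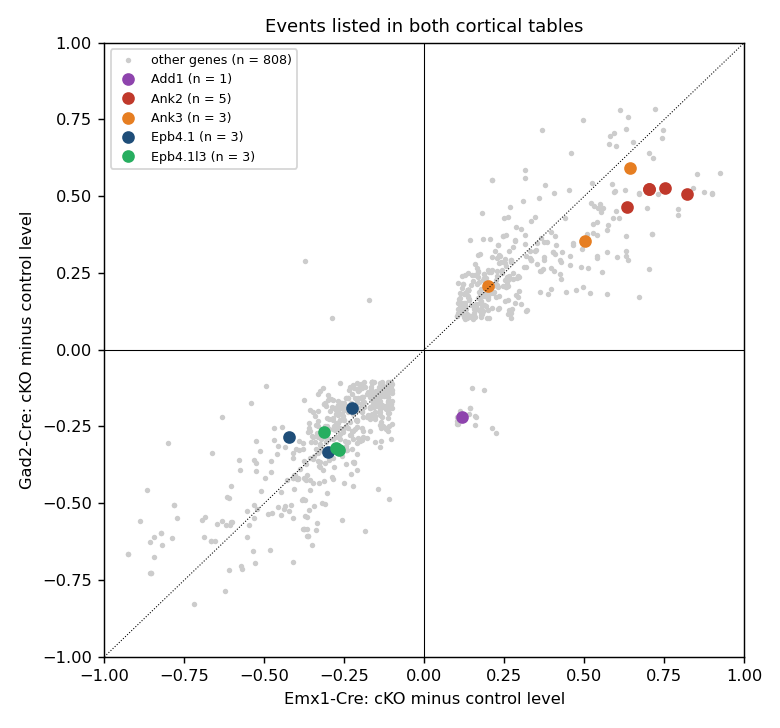
Change of the inclusion level (cKO minus control, fraction) in Emx1-Cre neurons (horizontal axis) against Gad2-Cre neurons (vertical axis) for all 823 events listed in both tables. The 15 member events are coloured by gene, and the dotted line marks equal change. Ank2 and the long Ank3 exon lie below the line at right, Epb4.1 and Epb4.1l3 at lower left, and Add1 alone among members at lower right; the empty cross follows from the listing threshold of 0.1.

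Partners of this skeleton, such as beta spectrins, adhesion proteins and channels held by ankyrins and the tropomyosins that coat its actin, were counted from a list of 79 symbols. These symbols were not picked for how the genes moved, but the list was made with earlier results of these data known. Of that list, 15 genes were listed for Emx1-Cre neurons, 8 higher and 7 lower in cKO neurons by their largest event, with a median absolute difference of 0.365. Over all 1044 listed genes, 533 were higher and 511 lower, with a median of 0.204. For Gad2-Cre neurons 17 were listed, 8 higher and 9 lower, with a median of 0.250, against 422 higher and 456 lower and a median of 0.208 over all 878 listed genes. In the table of controls 7 were listed (1 higher and 6 lower in Emx1-Cre), where 62.5% of all 552 listed genes were lower. For the Purkinje layer 9 were listed (2 higher and 7 lower in group 1), where 73.1% of all 253 were lower.

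Among those that differed by at least 0.3, Nrcam, an adhesion protein that ankyrin-G holds at the initial segment, had a pair of 57 and 75 nt exons at 0.0752 in Emx1-Cre cKO and 0.963 in control neurons and at 0.442 in Gad2-Cre cKO and 1 in control neurons in the authors' deposited tables. Chl1, a relative of L1, rose at a 48 nt exon to 0.791 in Emx1-Cre cKO, against 0.190 in control, and to 0.740 in Gad2-Cre cKO, against 0.289 in control, in the authors' deposited tables. Listed Chl1 events went both ways, 1 of them changing by -0.326 in Emx1-Cre and -0.383 in Gad2-Cre cKO neurons. Scn8a, a sodium channel of the initial segment, rose at a 92 nt exon to 0.654 in Emx1-Cre cKO, against 0.289 in control, and to 0.538 in Gad2-Cre cKO, against 0.174 in control, in the authors' deposited tables (coverage 33.8 and 27). Partners of the ankyrins thus moved in both directions in these neurons.

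Slc8a1, the sodium-calcium exchanger, rose at a 21 nt exon to 0.750 in Emx1-Cre cKO, against 0.0475 in control, and to 0.395 in Gad2-Cre cKO, against 0.132 in control, in the authors' deposited tables. In a second event a 104 nt exon fell to 0.2995 in Emx1-Cre cKO, against 0.672 in control, and to 0.314 in Gad2-Cre cKO, against 0.735 in control, in the authors' deposited tables. Between other neighbouring exons, the 104 nt exon rose to 0.644 in Emx1-Cre cKO, against 0.126 in control, in the authors' deposited table. Itpr1, a calcium release channel, had 10 listed Emx1-Cre events, of which the largest was at a 5′ splice site. There the level fell to 0.409 in Emx1-Cre cKO, against 0.934 in control, in the authors' deposited table. It is read as the share of the isoform named first, with the same limit on direction as for the 3′ splice sites. Camsap1, which binds microtubule ends and spectrin, fell at a 33 nt exon to 0.142 in Emx1-Cre cKO, against 0.620 in control, and to 0.202 in Gad2-Cre cKO, against 0.563 in control, in the authors' deposited tables. Cask, a membrane scaffold, fell at a 36 nt exon to 0.212 in Emx1-Cre cKO, against 0.622 in control, and to 0.190 in Gad2-Cre cKO, against 0.880 in control, in the authors' deposited tables.

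For the tropomyosins, Tpm3 fell at a 72 nt exon to 0.283 in Emx1-Cre cKO, against 0.863 in control, and to 0.403 in Gad2-Cre cKO, against 0.761 in control, in the authors' deposited tables. Coverage there was 29 and 28, and the Gad2-Cre FDR was 0.0464. Listed Tpm3 events went both ways, 1 of them rising by 0.494 in Emx1-Cre and 0.204 in Gad2-Cre cKO neurons. For Tpm1 the isoform named first of a mutually exclusive pair rose to 0.980 in Emx1-Cre cKO, against 0.622 in control, and to 0.906 in Gad2-Cre cKO, against 0.412 in control, in the authors' deposited tables (coverage 37.6 and 30.5). Between the controls, only an 18 nt exon of Nrcam passed 0.3 in the list, at 0.436 in Emx1-Cre and 0.756 in Gad2-Cre neurons in the authors' deposited table. In the Purkinje table only a 79 nt exon of Tpm3 did, at 0.152 in group 1 and 0.453 in group 2.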

How the data were processed

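RNA was extracted with TRIzol and made into TruSeq libraries depleted of ribosomal RNA, per the labels, and the authors scored splicing with Quantas (build mm10, per the labels). The submitters' processing notes also name kallisto and edgeR without a role. The aligner, tool versions and strandedness are not given in the sources used here. Per the file headers, each deposited table gives an inclusion level per group as a fraction, their difference as a score, a p-value and FDR, and coverage as a signal, all made by the authors from pooled libraries. The tables used here hold no column per library, so library depth is unknown and no interval from reads is given. Low coverage makes a level less certain. Deposited genome intervals gave positions, and 0 columns were left unused. The 12 libraries of other groups were not analysed here.

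The table names give the order of the cortical groups. Control levels matched between the table of controls and the cKO tables at 307 of 307 and 323 of 323 shared events (tolerance 1e-06), of which 1 and 6 were members. The Purkinje order is not named.

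Members, lists and tests were chosen with earlier results of these data known. Every member gene is named, and for each alternative region the largest event of its simplest type was to be described, with full values for events in 2 or more tables and for the largest event of each gene and table; overlapping forms of 1 exon are in part given for 1 form only. Listed partner genes with an absolute difference of at least 0.3 are named. Event identifiers matched tables. Sequences were cut from GENCODE M21 transcripts (mm10), and exons of like length are listed cassette exons within 10% of the length that match a GENCODE exon. Only 14 of 25 member cassette exons match one, so the share with a motif over the set is void. Alternatives were FDR at most 0.01, difference at least 0.2, coverage at least 50, 1 event per gene, matching by overlap, and a binomial spread. Python 3.11.15, numpy 2.4.6, pandas 2.3.3 and scipy 1.17.1 were used.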

Additional observations from a re-analysis of the deposited data

Results flagged for a closer look

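Member events stood out in 1 way, a change that differed between Emx1-Cre and Gad2-Cre neurons by the two-sided normal test with Benjamini-Hochberg adjustment over 823 shared events. The Emx1-Cre change minus the Gad2-Cre change was 0.314 for the Ank2 pair of 92 and 183 nt exons, 0.227 for the pair of 183 and 77 nt exons and 0.171 for the 183 nt exon alone. These 3 share 1 exon. It was 0.147 for the long 679 nt exon of Ank3. It was 0.336 for the Add1 pair of 37 and 50 nt exons, which rose in Emx1-Cre cKO neurons and fell in Gad2-Cre cKO neurons. Coverage was higher in Emx1-Cre than in Gad2-Cre neurons at each of the 5, with 138 against 81.0 for the first Ank2 pair, 190 against 173 for Ank3 and 98.1 against 37.4 for Add1, and the part of coverage in these differences was not tested.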

How the results depend on the processing

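No paired analysis was possible because the deposited tables hold 1 pooled level per group and no column per library, and for the same reason no library could be left out. The window of 100 bases beside exons was not run, since no genome sequence was used. Counts were 33 member events in Emx1-Cre neurons, 25 in Gad2-Cre, 7 between controls and 18 in Purkinje layer, with 15 shared by the cortical tables, 5 of them differing in size. With 1 event per gene these became 6, 7, 2, 5, 2 and 1, and 50% of cassette exons had a length that is a multiple of 3, against 72% over all. Gad2-Cre events numbered 13 at FDR up to 0.01. At coverage of at least 50, 11 Gad2-Cre events, 0 between controls and 8 shared events were left. Purkinje events with a difference of at least 0.2 numbered 4. Matching by overlapping region gave 25 shared Emx1-Cre events. The binomial spread called 3 members, and over all 823 shared events 70, against 106 with the spread from p-values. For the size difference of single events, 45 of 47 alternative values kept direction and side of the threshold, 2 (the Ank3 long exon and the Ank2 183 nt exon, binomial spread) kept direction only, and 0 reversed. Coverage was close to the minimum of 20 for Epb4.1l4a and for the Epb4.1 events joined to the 63 nt exon.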
